A study of Brassica napus with 11 samples.

Results

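In the funiculus of Brassica napus (canola), 242 of 97902 transcripts shared an uneven distribution over libraries of the same tissue. They were high in the first epidermis library, and mostly lower but present in the second vasculature library and the first whole funiculus library. They were mostly low or at 0 in epidermis 2 and 3, vasculature 1 and 3 and whole funiculus 3. In whole funiculus 2 they were scattered, with 99 of the 242 at 1 FPKM or more. They were selected on the measured levels themselves. A transcript qualified with at least 10 FPKM (fragments per kilobase of transcript, scaled to the mapped reads of the library) in epidermis 1 and at least 5 times its level in both epidermis 2 and epidermis 3, with a level above 0 in vasculature 2 that was at least 2 times that in both vasculature 1 and vasculature 3, and with a level above 0 in whole funiculus 1 that was at least 2 times that in whole funiculus 3. The selection used neither cortex library and did not use whole funiculus 2. Levels in the libraries that it did use are therefore given as a description. Counts from a fit between the tissues over all transcripts are printed, also under other settings, with nothing read from them for the selected ones.

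The funiculus is the stalk that joins a developing seed to the maternal fruit wall. Its epidermis (libraries 1 to 3), cortex (1 and 2) and vasculature (1 to 3) were cut out by laser microdissection, and whole funiculi were collected as a control (1 to 3). All 11 libraries came from the doubled haploid line DH4079 of cultivar Topaz, 7 days after open flowers were pollinated, at the globular stage of seed development, so that every library shares genotype, age and pollination and no unpollinated tissue was compared. Each library pooled pieces of tissue from several plants and its RNA was amplified before sequencing.

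The distribution was called pollen-tube-like after its examples, 3 pectate lyases and a pectin methylesterase whose Arabidopsis counterparts act in pollen tubes. A pollen tube is the tip-growing cell that carries the sperm cells through the pistil, and in Arabidopsis it follows the surface of the funiculus to reach the ovule. Its tip wall is rich in pectin, which is secreted in a methylesterified form and then modified: pectin methylesterases remove the methyl groups, inhibitor proteins restrain them, and pectate lyases and polygalacturonases cleave the pectin chain. Calcium-dependent protein kinases, RALF peptides and arabinogalactan proteins also act in the growth of pollen tubes or in the integrity of their wall.

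The name could be checked for few of the transcripts only. An Arabidopsis counterpart or a description was held for 30 of the 242, another 3 had no Arabidopsis protein match, and no description was held for 209. Of the 30 described transcripts, 24 stood on the study's list of 139 epidermis-enriched transcripts, which is 17.3% of that list and 9.92% of the selection. None was on its cortex or vasculature list. That list was drawn from these same libraries, so its overlap is not independent evidence. A list of 40 Arabidopsis pollen and pollen tube genes could be paired with 23 transcripts of 18 of its genes, and 15 of the 23 were in the selection. All 23 stood on the study's epidermis list, and the pollen list was written with that list in view. The 15 of 23 is therefore no independent evidence for the name either. None of 3 sperm cell genes was paired with a transcript. Only transcripts on the study's lists could be paired, so nothing follows about the level of sperm cell genes. The selection as a whole is described here by its rule and not as a cell type.

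Most of the selected transcripts were of moderate level in epidermis 1, lower in vasculature 2 and whole funiculus 1, and under 1 FPKM in the other libraries. In vasculature 2, 235 of the 242 reached 1 FPKM and 109 reached 5 FPKM, and in whole funiculus 1, 163 reached 1 FPKM. In epidermis 1 the median level was 23.5 FPKM, with 101 transcripts between 10 and 20 FPKM and 22 above 100 FPKM. In epidermis 2 the median was 0.467 FPKM with 91 transcripts at 0, and in epidermis 3 it was 0 FPKM with 156 at 0. These epidermis levels follow from the first condition of the rule.

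In the cortex, which played no part in the choice, the medians were 0.430 FPKM in cortex 1 and 0.337 FPKM in cortex 2, with 77 and 72 transcripts at 0. Both cortex libraries contained 128 of the transcripts (52.9%), neither contained 35, and 37 reached 1 FPKM in both. Cortex 1 was the higher of the 2 libraries for 115 transcripts and cortex 2 for 92. The cortex mean exceeded the mean of epidermis 2 and epidermis 3 for 122 transcripts and fell below it for 104.

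In the vasculature, the medians were 0.580 FPKM in library 1, 4.53 FPKM in library 2 and 0 FPKM in library 3, and 185 transcripts were at 0 in library 3. The rule set library 2 above the other 2 libraries but did not order those, and vasculature 1 was higher than vasculature 3 for 186 transcripts and lower for 4. Vasculature 1 was thus the higher for 76.9% of the selected transcripts, against 47.6% of the 45300 transcripts whose mean reached 1 FPKM in 1 tissue or more. Epidermis 2 and epidermis 3 were also not ordered by the rule. Epidermis 2 was the higher for 143 of the selected transcripts and epidermis 3 for 25 (59.1% higher in epidermis 2, against 42.5% of the 45300).

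The whole funiculus libraries had medians of 1.5 FPKM in library 1, 0 FPKM in library 2 and 0 FPKM in library 3. Library 2 was left out of the means, as the study did. It stood apart from all the others: 39.7% of the 45300 transcripts were at 0 in it, against 6.81% to 16.0% in the other 10 libraries. The selected transcripts were scattered in it, with 122 at 0, 99 at 1 FPKM or more and a sum of 2003 FPKM, of which a single transcript, BnaA03g13510D, contributed 284 FPKM. That transcript reached 20.8 FPKM in epidermis 1, and 18 of the 242 were higher in whole funiculus 2 than in epidermis 1. Of the 242 transcripts, 123 were at 0 in epidermis 3, vasculature 3 and whole funiculus 3 at once.

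**Figure D1:**
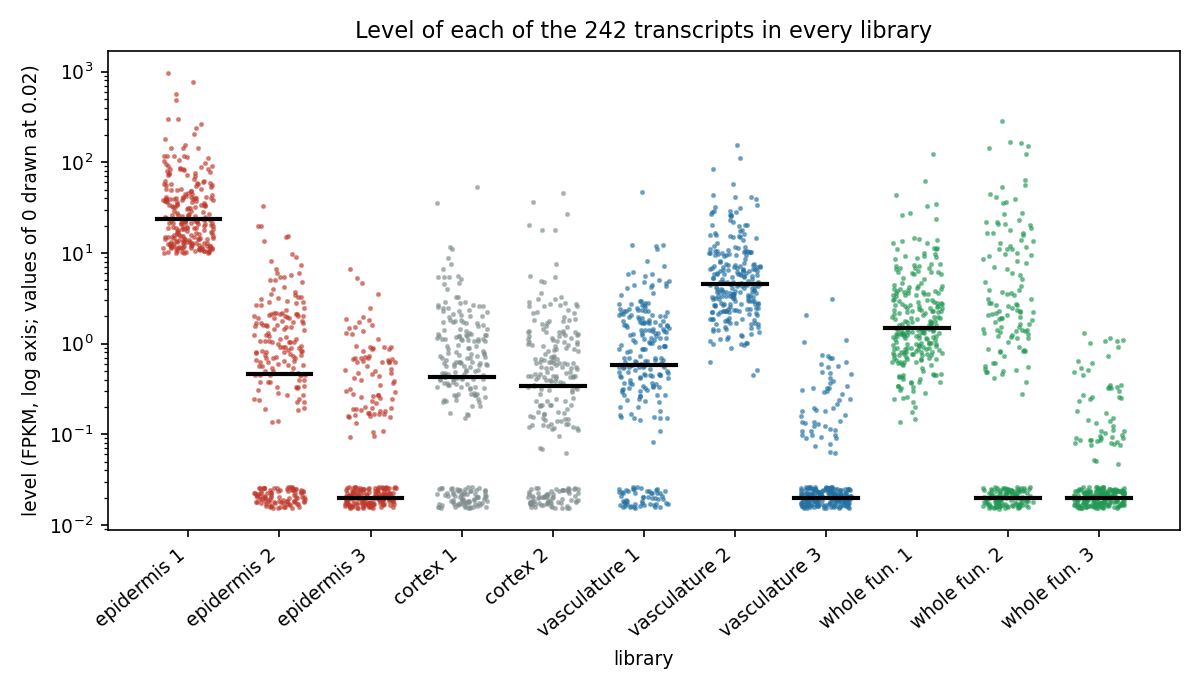
Each point is 1 of the 242 transcripts, its level on the vertical log axis in FPKM, in each of the 11 libraries on the horizontal axis; values of 0 are drawn at 0.02 and the black bar is the median. The points of epidermis 1 lie at 10 FPKM or above (median 23.5 FPKM), those of vasculature 2 and whole funiculus 1 lie lower (4.53 and 1.5 FPKM), and in epidermis 3, vasculature 3 and whole funiculus 3 most points are at 0.

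The selected transcripts summed to 12383 FPKM in epidermis 1, 366 FPKM in epidermis 2 and 68.9 FPKM in epidermis 3. The sums were 321 and 327 FPKM in cortex 1 and 2, and 355, 2142 and 21.8 FPKM in vasculature 1, 2 and 3. In whole funiculus 1 and 3 they were 999 and 18.5 FPKM. As a share of all FPKM in the library, the selection made up 2.44% of epidermis 1, 0.455% of vasculature 2 and 0.227% of whole funiculus 1, and at most 0.0775% of any of the other 7 libraries apart from whole funiculus 2. In bulk tissue, fewer cells of a type and less RNA per cell cannot be told apart in such sums.

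These levels rest on unequal numbers of fragments. The spacing of the low values in each library gave its depth relative to whole funiculus 3, which was 0.759 for whole funiculus 1 and 0.186 for whole funiculus 2. Of the epidermis libraries the deepest was at 0.493, of the cortex libraries at 0.739 and of the vasculature libraries at 0.838. Epidermis 1, at 0.356, was one of the shallower libraries. In libraries other than whole funiculus 1 and 3, 41.2% to 50.8% of the low values fell on whole multiples. Fragments were estimated for 240 of the 242 transcripts, whose levels in 10 libraries fell within 0.05 fragments plus 1% of a whole number. At high numbers, such as 54 fragments, that tolerance admits any value and is no check. Each estimate is the smallest that fits and so a lower limit. The selected transcripts accounted for about 21812 fragments in epidermis 1, 5659 in vasculature 2 and 3357 in whole funiculus 1, but for 117 in vasculature 3 and 156 in whole funiculus 3, the deepest libraries of their tissues. The median transcript rested on 54 fragments in epidermis 1, 13 in vasculature 2 and 8 in whole funiculus 1, so that most of the levels under 1 FPKM are of a few fragments each. Some transcripts reached high levels on few estimated fragments too. The estimate was at most 5 for 7 transcripts in epidermis 1, and at most 3 for 31 in vasculature 2.

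Within most transcripts the 3 libraries that the rule raised stood in the same order. The rule set its floor of 10 FPKM on epidermis 1 only, which favours epidermis 1 as the highest. Epidermis 1 exceeded vasculature 2, and vasculature 2 exceeded whole funiculus 1, for 228 of 242 transcripts (94.2%). The level in vasculature 2 was a median of 17.9% of that in epidermis 1, with quartiles at 12.2% and 24.7%, and whole funiculus 1 had a median of 6.91% (quartiles 3.82% and 9.98%). Across the 242 transcripts, the log10 level in epidermis 1 correlated with that in vasculature 2 at Pearson's r = 0.82 (Spearman's rho = 0.77) and with that in whole funiculus 1 at r = 0.77 (rho = 0.69).

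Correlations with epidermis 1 were found for other libraries too. Here r was taken over the transcripts above 0 in the library, and rho over all 242, those at 0 included. For epidermis 2 r was 0.62 over 151 transcripts (rho over all 242 = 0.27), and for vasculature 1 it was 0.79 over 187 (rho = 0.62). In the cortex, outside the rule, r was 0.73 over 165 transcripts in cortex 1 (rho over all 242 = 0.40). In cortex 2 it was 0.71 over 170 (rho = 0.48). For whole funiculus 2 r was 0.04 over 120 transcripts (rho over all 242 = 0.0063). These correlations run across transcripts and not across samples, and transcripts are not independent. The length of a transcript enters its FPKM in every library where a level rests on a few fragments. The thresholds cut off the low end of epidermis 1. For vasculature 2 and whole funiculus 1, where both measures cover the same transcripts, rho was the lower. For the other libraries r and rho cover different sets and cannot be set side by side.

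**Figure D2:**
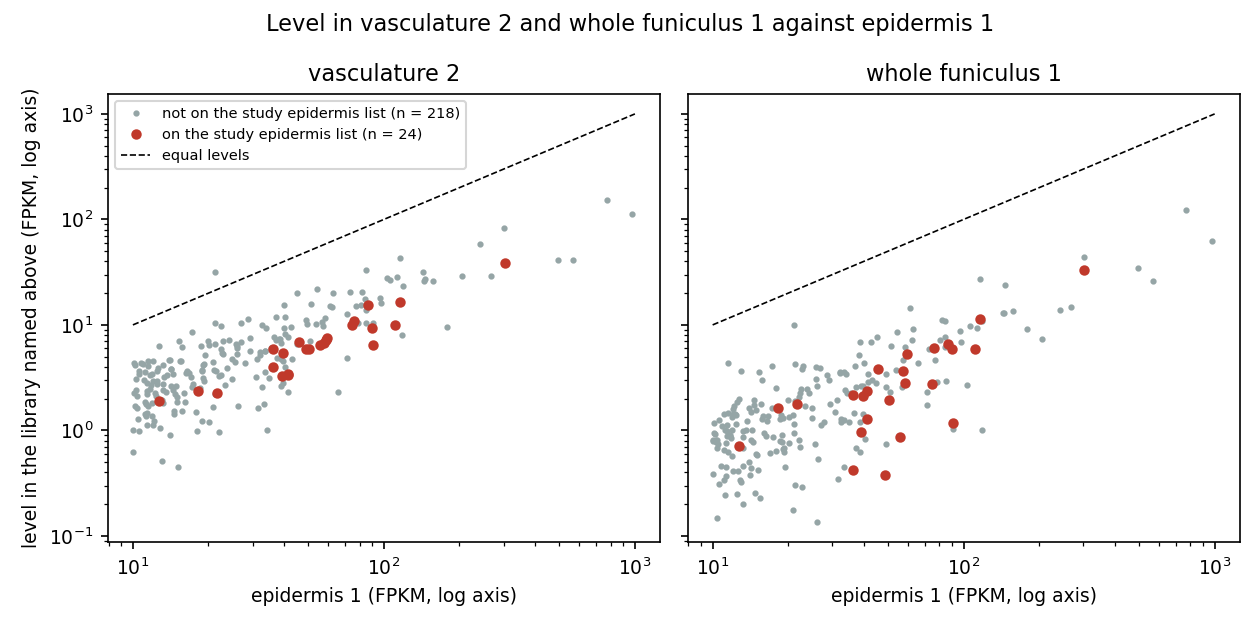
Level of each of the 242 transcripts in vasculature 2 (left) and whole funiculus 1 (right) against its level in epidermis 1, in FPKM on log axes; red points are the 24 transcripts on the study's epidermis list, grey points the others, and the dashed line marks equal levels. The points form a band below the line, at a median of 17.9% of the epidermis 1 level on the left and 6.91% on the right, and 1 transcript on the left lies above the line.

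The exception above the line was BnaC06g21510D, at 21.2 FPKM in epidermis 1 and 31.4 FPKM in vasculature 2. It was also at 20.4 FPKM in cortex 2 and 162 FPKM in whole funiculus 2, and at 0 in cortex 1 and in the lower libraries of each tissue. It rested on an estimated 1 fragment in epidermis 1 and 2 in vasculature 2, the smallest numbers that fit. At those numbers its place above the line is within counting error.

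Pectate lyases, which cut de-esterified pectin, were the largest family among the described transcripts, with 4 members. BnaCnng05770D was at 111, 5.39 and 0.929 FPKM in epidermis 1 to 3, at 2.68 and 0.990 FPKM in cortex 1 and 2, at 2.44, 9.91 and 0 FPKM in vasculature 1 to 3, and at 5.91, 0.491 and 0 FPKM in whole funiculus 1 to 3. BnaA03g27540D, paired with the same Arabidopsis gene (AT3G01270), was at 41.4, 4.74 and 0 FPKM in the epidermis, 0.951 and 0.604 FPKM in the cortex, 0.953, 3.35 and 0 FPKM in the vasculature and 1.30, 1.92 and 0 FPKM in the whole funiculus. Both were thus high in 1 library of 3, and their cortex levels lay within the range of epidermis 2 and 3.

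The other 2 pectate lyases were paired with AT1G14420. BnaA06g09240D was at 45.8, 0.586 and 0.202 FPKM in the epidermis, 1.06 and 0.538 FPKM in the cortex, 2.30, 6.84 and 0.237 FPKM in the vasculature, and 3.80, 0 and 0.0995 FPKM in the whole funiculus. For BnaCnng60280D the levels were 36.1, 2.15 and 0.371 FPKM in the epidermis, 1.70 and 0.247 FPKM in the cortex, 1.46, 5.90 and 0.327 FPKM in the vasculature and 2.17, 2.45 and 0 FPKM in the whole funiculus. Each had more in vasculature 2 than in epidermis 2 or 3, and BnaA06g09240D had more in both cortex 1 and vasculature 1 than in epidermis 2 and 3.

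Pectin methylesterases and their inhibitors made up 3 transcripts. BnaA03g21590D, paired with VGD1 (VANGUARD1, AT2G47040), a pectin methylesterase needed for pollen tube growth in Arabidopsis, was at 59.6, 5.95 and 0 FPKM in epidermis 1 to 3, 1.47 and 1.12 FPKM in the cortex, 2.78, 7.46 and 0 FPKM in the vasculature, and 5.33, 0 and 0.0919 FPKM in the whole funiculus. BnaC01g16500D, a member of the inhibitor superfamily paired with AT4G24640, was at 57.5, 1.26 and 0 FPKM in the epidermis, 1.70 and 2.60 FPKM in the cortex, and 2.65, 6.67 and 0 FPKM in the vasculature. BnaA01g14010D, of the same superfamily and not on the study's list, was at 84.6, 0 and 0.900 FPKM in the epidermis, 0.590 and 2.70 FPKM in the cortex and 4.33, 13.8 and 0 FPKM in the vasculature. In all 3, vasculature 1 and vasculature 2 were above 0 and vasculature 3 was at 0.

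Further pectin and wall proteins were also highest in epidermis 1. BnaC07g49180D, of the pectin lyase-like superfamily that includes the polygalacturonases, was at 76.3, 0.332 and 0.458 FPKM in the epidermis, 3.30 and 0.610 FPKM in the cortex and 3.61, 10.8 and 0 FPKM in the vasculature. SKU5 similar 13 encodes a protein of the multicopper oxidase-like family and is expressed in pollen in Arabidopsis, and its counterparts BnaA05g25890D and BnaC03g37910D were at 116 and 86.7 FPKM in epidermis 1. Both had more than most in epidermis 2, at 15.0 and 15.5 FPKM, close to their vasculature 2 levels of 16.6 and 15.6 FPKM. Their epidermis 3 levels were 0.169 and 0.350 FPKM.

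Glycosyl hydrolases were represented by BnaC07g45340D, paired with beta-galactosidase 11, at 39.7, 3.19 and 0.315 FPKM in epidermis 1 to 3, and by BnaA04g00410D, at 58.6, 0.446 and 0 FPKM. BnaC09g52000D, of the Pollen Ole e 1 allergen and extensin family, was at 55.7, 0.649 and 0 FPKM in the epidermis and 1.17 and 1.79 FPKM in the cortex. Again the single high library was epidermis 1.

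BnaA03g19650D, paired with arabinogalactan protein 23, was the most abundant of the described transcripts. It was at 302, 33.0 and 1.26 FPKM in the epidermis, 6.63 and 7.58 FPKM in the cortex, 12.2, 38.9 and 0.743 FPKM in the vasculature and 32.8, 0 and 0 FPKM in the whole funiculus. Arabinogalactan proteins are heavily glycosylated proteins of the cell surface, and this short one is expressed in Arabidopsis pollen. Its level in epidermis 2 was close to that in whole funiculus 1.

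BnaA02g04170D, paired with calcium-dependent protein kinase 34, a kinase of pollen tube tip growth in Arabidopsis, lay close to the limit of the rule: 21.7, 4.01 and 0 FPKM in the epidermis, 0.725 and 0.982 FPKM in the cortex, 0.968, 2.27 and 0.325 FPKM in the vasculature and 1.79, 20.9 and 0 FPKM in the whole funiculus. Whole funiculus 2 was here nearly as high as epidermis 1.

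Lipid proteins were 3 transcripts: BnaC09g22170D and BnaA02g27380D, both paired with the GDSL-like lipase gene AT2G03980, at 89.6 and 41.3 FPKM in epidermis 1, and BnaA08g03150D, a calcium-dependent lipid-binding protein, at 48.7 FPKM. In epidermis 2 the first was at 0.379 FPKM and the others were at 0. Other described transcripts on the study's list were BnaA05g14020D (dormancy/auxin associated family) at 74.7 FPKM in epidermis 1, BnaA04g27260D (F-box family) at 39.1 FPKM, BnaC04g05270D (ABC2 homolog 9) at 18.2 FPKM and BnaA02g09870D (SPFH/Band 7 membrane protein) at 12.8 FPKM. Counterparts of unknown proteins, BnaA09g02340D, BnaC02g06390D and BnaA02g02970D, were at 90.5, 50.5 and 36.1 FPKM. Of the 24 listed transcripts, 16 were at 0 in vasculature 3 and 15 in whole funiculus 3, and none was at 0 in vasculature 1, where the level ranged from 0.367 to 12.2 FPKM.

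Those 6 with a description that were not on the study's list were BnaA01g14010D, above, and 5 more. BnaA01g03090D, a leucine-rich repeat protein, was at 51.2 FPKM in epidermis 1, BnaA01g15090D, a galactose mutarotase-like protein, at 13.3 FPKM, and BnaA01g01860D, a C2H2 zinc finger protein, at 13.03 FPKM. BnaA01g21610D, matched to methyltransferases, was at 12.5 FPKM and BnaA01g05340D, of the malectin/receptor-like kinase family, at 10.3 FPKM. They are on chromosome A01 because descriptions beyond the study's enriched lists were held for the start of the transcript table only.

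**Figure D3:**
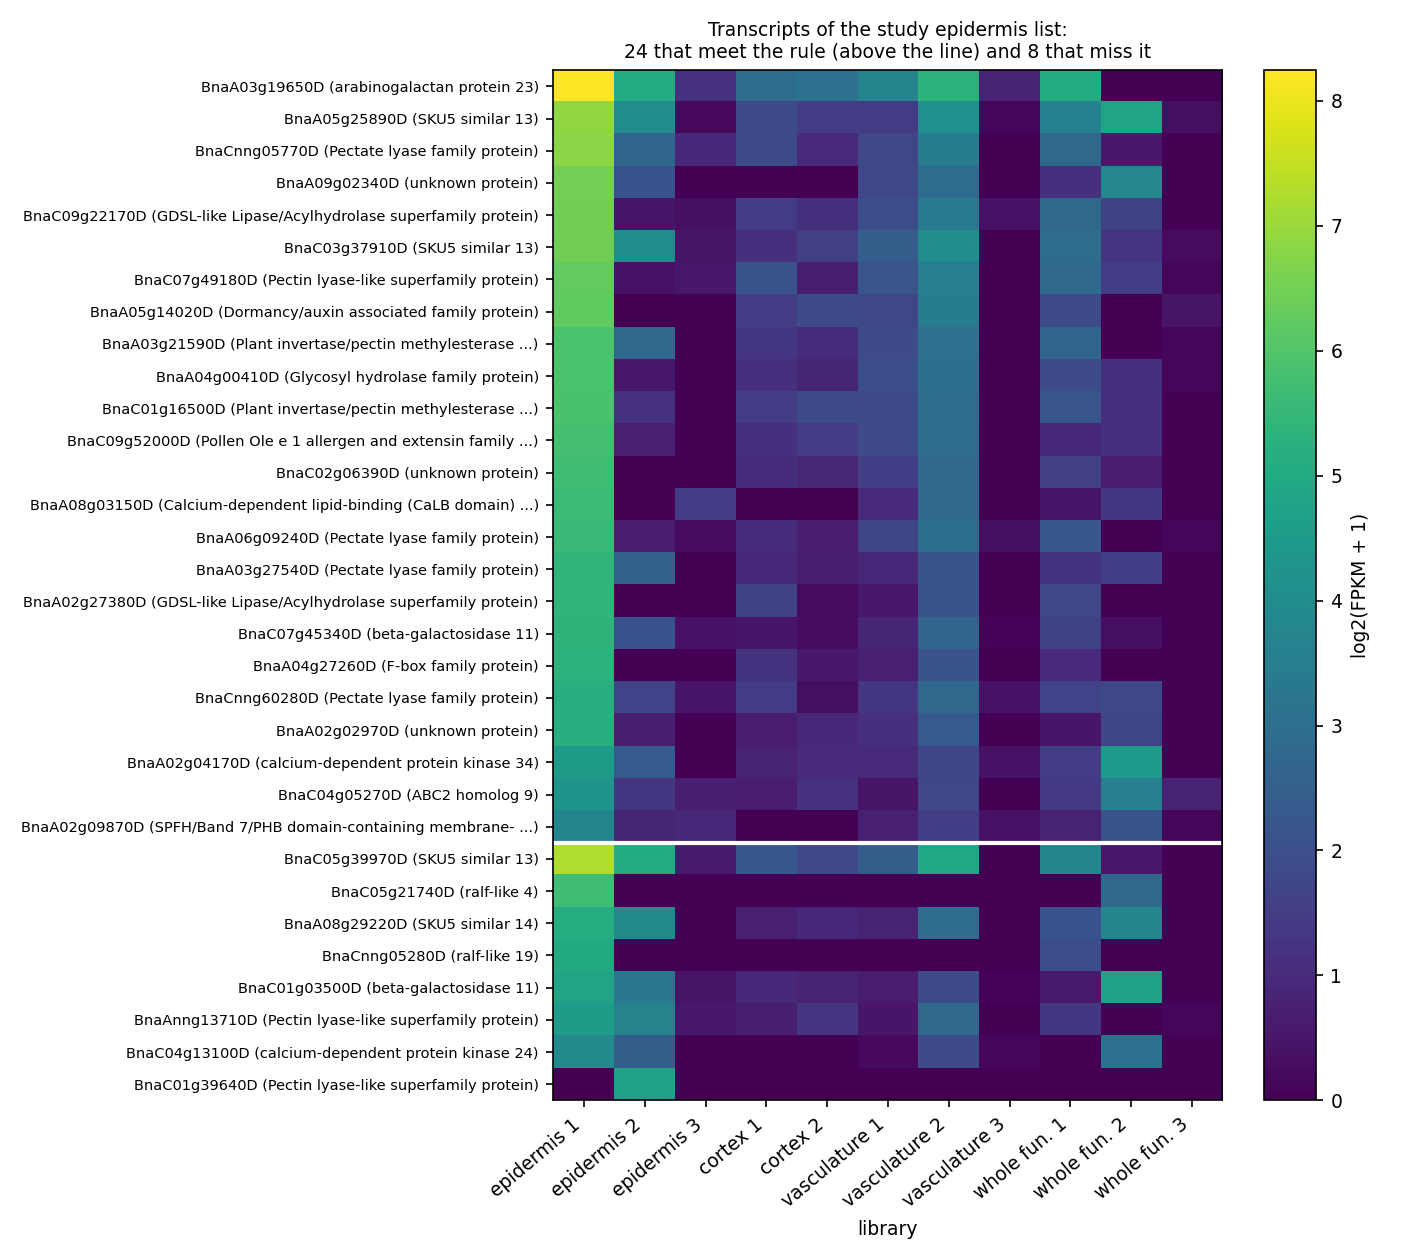
Level of 32 transcripts of the study's epidermis list (rows) in the 11 libraries (columns), as log2(FPKM + 1) on the colour scale; the 24 above the white line meet the rule and the 8 below it do not but are paired with genes of the pollen list. Above the line, the epidermis 1 column is the brightest in every row, most narrowly for BnaA02g04170D (21.7 FPKM in epidermis 1, 20.9 FPKM in whole funiculus 2), and the vasculature 3 and whole funiculus 3 columns are dark.

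Among the study's groupings of its epidermis list by function, the selected transcripts held 5 of the 7 in pectin catabolic process, all 4 in pectate lyase activity and 6 of the 10 in plant-type cell wall modification. They held 2 of 5 in pectinesterase activity, 2 of 7 in lipid catabolic process and 11 of 45 in the extracellular region. None of the 3 transcripts in cutin biosynthetic process and none of the 5 in root morphogenesis was among them. Of the whole list, 24 of 139 transcripts (17.3%) were in the selection. At that share, none in groups of 3 or 5 is unremarkable, and nothing is read from it. BnaC02g41520D, an acyltransferase of the cutin group, was at 391, 292 and 422 FPKM in epidermis 1 to 3, at 52.2 and 88.1 FPKM in the cortex and at 2.77, 0.432 and 0.619 FPKM in the vasculature. BnaAnng37650D of the same group was at 3.12, 18.0 and 3.39 FPKM in epidermis 1 to 3. The cutin transcripts thus differed among themselves, the first being high in all 3 epidermis libraries and the second highest in epidermis 2.

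The 8 transcripts paired with pollen list genes that missed the rule fell in several ways. BnaC05g39970D, the third counterpart of SKU5 similar 13, was at 153, 32.7 and 0.509 FPKM in epidermis 1 to 3 and at 4.45, 28.9 and 0 FPKM in vasculature 1 to 3, and missed because epidermis 1 was 4.69 times epidermis 2. SKU5 similar 14 (BnaA08g29220D) was at 33.7, 14.1 and 0 FPKM in the epidermis, and the second counterpart of beta-galactosidase 11 (BnaC01g03500D) at 27.3, 8.63 and 0.337 FPKM. BnaAnng13710D, a pectin lyase-like protein, was at 22.8, 11.95 and 0.458 FPKM, and BnaC04g13100D, paired with calcium-dependent protein kinase 24, at 13.7, 4.35 and 0 FPKM. These 5 were higher in epidermis 2 than most selected transcripts and at 0 or nearly so in epidermis 3.

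RALF4 and RALF19 are secreted peptides that maintain pollen tube integrity in Arabidopsis. BnaC05g21740D, paired with RALF4, was at 51.9 FPKM in epidermis 1 and at 5.84 FPKM in whole funiculus 2 and was listed at 0 in the other 9 libraries, vasculature 2 included. BnaCnng05280D, paired with RALF19, was at 31.2 FPKM in epidermis 1 and 2.93 FPKM in whole funiculus 1 and at 0 in the rest. BnaC01g39640D, a pectin lyase-like protein, went against the pattern altogether, at 25.1 FPKM in epidermis 2 and at 0 in epidermis 1 and in the other 9 libraries. The 8 transcripts together summed to 334, 96.8 and 1.30 FPKM in epidermis 1 to 3 and 5.92 and 5.39 FPKM in the cortex. They summed to 6.33, 46.9 and 0.170 FPKM in the vasculature and 20.8, 52.4 and 0.113 FPKM in the whole funiculus. Epidermis 1, vasculature 2 and whole funiculus 2 had the highest sums of their tissues, as in the selection. Cortex 1 had the higher cortex sum here, but cortex 2 in the selection (321 and 327 FPKM). In epidermis 1, BnaC05g39970D alone gave 153 FPKM.

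The highest levels of all belonged to transcripts without a description. BnaA04g02260D reached 978 FPKM in epidermis 1, with 19.7 and 0 FPKM in epidermis 2 and 3, 53.5 and 36.3 FPKM in the cortex, 47.6, 112 and 0 FPKM in the vasculature and 61.8, 0 and 0 FPKM in the whole funiculus. The level of 978 FPKM rested on an estimated 52 fragments, and those in cortex 1 and 2 on 3 and 4, the smallest numbers that fit. BnaCnng14120D was at 771, 19.7 and 0 FPKM in the epidermis, 35.7 and 45.3 FPKM in the cortex, 0, 153 and 0 FPKM in the vasculature and 124, 144 and 0 FPKM in the whole funiculus, and was the highest of the selection in vasculature 2 and whole funiculus 1. It rested on 41 fragments in epidermis 1 and 11 in vasculature 2.

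BnaA01g22700D and BnaC01g29540D, the first of them without an Arabidopsis protein match, were at 568 and 493 FPKM in epidermis 1 and both at 41.4 FPKM in vasculature 2. BnaAnng22590D was at 301 FPKM in epidermis 1 and 83.7 FPKM in vasculature 2, BnaA09g13690D at 268 and 29.2 FPKM and BnaC07g25300D at 242 and 57.9 FPKM. BnaC01g11000D was at 204 and 28.8 FPKM in these 2 libraries and BnaA05g37460D at 179 and 9.59 FPKM. With BnaA03g19650D, these were the 10 highest in epidermis 1, and 6 of the 10 were at 0 in epidermis 3. BnaC02g00330D, among the 5 highest in vasculature 2, was at 116 FPKM in epidermis 1, 43.1 FPKM in vasculature 2 and 27.3 FPKM in whole funiculus 1, and at 0 in the other 8 libraries. These levels rested on an estimated 2, 1 and 1 fragments, the smallest numbers that fit. At those numbers its rank is that of a single fragment.

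The level in vasculature 2 relative to epidermis 1 lay between 7.12% and 18.0% for the 24 listed transcripts, with a median of 12.3%. For all 242 it lay between 2.97% and 148%, the upper end being the transcript of an estimated 2 fragments against 1. The 209 transcripts without a description had medians of 21.4 FPKM in epidermis 1, 0.399 and 0.290 FPKM in cortex 1 and 2 and 4.37 FPKM in vasculature 2. The 24 listed ones had 53.1, 1.19, 0.862 and 6.43 FPKM in these libraries. The listed transcripts thus had the higher median in all 4.

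Markers of the labelled tissues were paired through the study's enriched lists, which required a higher level in that tissue in these same libraries, so that their being highest there was fixed in advance. They show only how replicates of 1 tissue compare. The epidermis and cuticle list (13 transcripts of 10 genes, among them lipid transfer protein 2, MYB16 and PDF2) had no member in the selection and summed to 3871, 2070 and 3516 FPKM in epidermis 1 to 3, 240 and 729 FPKM in the cortex and 19.4, 13.2 and 12.2 FPKM in the vasculature. Lipid transfer protein 2 dominated it. Without that transcript the sums were 619, 460 and 600 FPKM in the epidermis and 5.95, 12.5 and 3.62 FPKM in the vasculature. The vasculature list (18 transcripts of 10 genes, among them phloem protein 2-A1 and xylem cysteine peptidase 2) also had none in the selection, and summed to 9.4, 6.68 and 3.86 FPKM in the epidermis, 22.4 and 50.2 FPKM in the cortex and 682, 804 and 669 FPKM in the vasculature. Epidermis 2 was the lowest of the epidermis libraries for the epidermis list.

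Beside the selection's sums of 355, 2142 and 21.8 FPKM in vasculature 1 to 3, the epidermis list was at 19.4, 13.2 and 12.2 FPKM. Beside its sums of 999 and 18.5 FPKM in whole funiculus 1 and 3, the epidermis list was at 486 and 445 FPKM and the vasculature list at 350 and 352 FPKM. Without their most abundant transcripts, lipid transfer protein 2 and phloem protein 2-A1, the lists were at 152 and 111 FPKM and at 68.7 and 109 FPKM in these 2 libraries. The inequality of the selection was set by the rule, and the lists differed less, in opposite directions once these transcripts were left out. The 23 pollen list transcripts, all on the study's epidermis list, include 15 of the selection, so that their distribution was largely fixed by it: 1481, 189 and 5.36 FPKM in the epidermis, 34.0 and 27.8 FPKM in the cortex, 49.0, 194 and 1.96 FPKM in the vasculature and 108, 112 and 0.915 FPKM in the whole funiculus. In epidermis 3, 12 of the 23 were at 0, and in vasculature 3 and whole funiculus 3 there were 15 and 16 at 0. The part of other cells in these levels was not tested, and no seed coat, endosperm, embryo or photosynthesis gene of the lists was paired with a transcript.

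**Figure D4:**
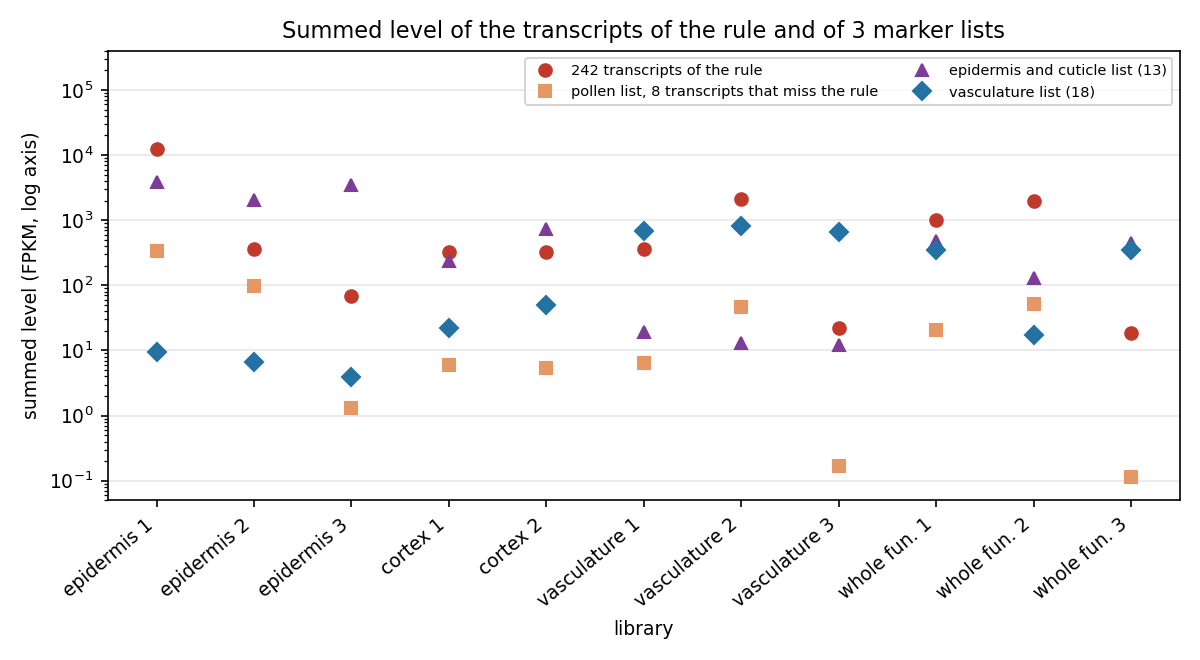
Summed level in FPKM (log axis) in each of the 11 libraries of the 242 selected transcripts, of the 8 pollen list transcripts outside the selection, and of the epidermis and cuticle (13 transcripts) and vasculature (18 transcripts) lists. The tissue lists lie close together among the replicates of their own tissue (3871, 2070 and 3516 FPKM for the epidermis list in the epidermis), whereas the selection is at 12383, 366 and 68.9 FPKM in epidermis 1 to 3.

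The question that the design asks is which transcripts differ between the tissues, and here the selected transcripts depended on 1 library. The epidermis mean over all 3 libraries had a median of 8.20 FPKM, against 0.430 FPKM for the cortex mean and 1.72 FPKM for the vasculature mean. It was a median of 15.7 times the cortex mean over the 207 transcripts detected in the cortex. Without epidermis 1, the epidermis mean had a median of 0.339 FPKM, and its ratio to the cortex mean a median of 0.528. Only 57 of the 242 then reached 1 FPKM in the epidermis.

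An epidermis mean at least 5 times both the cortex mean and the vasculature mean was met by 112 of the 242 transcripts (46.3%), and by 2.81% of the 45300. With epidermis 1 left out, 1 of the 242 met it, and 1.79% of the 45300. The one left was BnaC01g29960D, at 15.1, 1.90 and 0 FPKM in the epidermis, 0 and 0.146 FPKM in the cortex and 0, 0.448 and 0 FPKM in the vasculature. Leaving out epidermis 2 or epidermis 3 instead gave 189 and 192. As the rule was set on the epidermis libraries, these counts describe the weight of epidermis 1 and are no test.

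**Figure D5:**
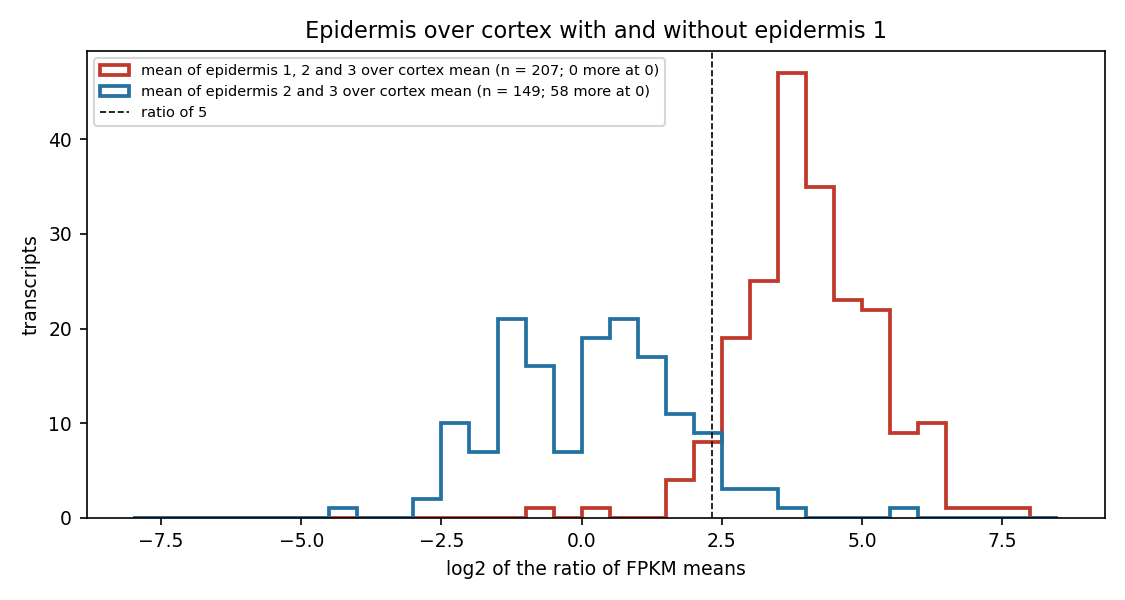
Histogram of the log2 ratio of the epidermis mean to the cortex mean over the 207 selected transcripts detected in the cortex, with all 3 epidermis libraries (red) and with epidermis 2 and 3 only (blue, 149 transcripts, with 58 more at a ratio of 0); the dashed line marks a ratio of 5. The red median is 15.7 and the blue median 0.528, and 198 and 14 of the transcripts are at 5 or above.

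The fit between tissues was run on all transcripts, and its counts for the selected ones were fixed in part by the rule, which demanded a wide spread within the epidermis and the vasculature. In limma's moderated test on log2(FPKM + 1) over the 45300 transcripts, with Benjamini-Hochberg adjustment, 0 of 242 were called at an adjusted p below 0.05 in epidermis against cortex, where 0.194% of all were called. The same count was 0 in epidermis against vasculature, where 15.6% of all were called, and 0 in cortex against vasculature, where 9.97% of all were called. At an unadjusted p below 0.05 there were again 0 of 242 in each contrast, against 4756, 12615 and 10494 of all 45300 transcripts. Nothing is read from these counts.

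The size of that spread is plain in the fitted values. The median log2 difference of the 242 was 1.28 in epidermis minus cortex, with a median SE of 1.23, against a median SE of 0.43 over all 45300. In epidermis minus vasculature it was 0.73 (median SE 1.10) and in cortex minus vasculature -0.54 (median SE 1.23). Without epidermis 1, 187 of the transcripts passed the filter on low values. Their median was -0.18 in epidermis minus cortex, with 79 above and 100 below 0, and -0.79 in epidermis minus vasculature. Of the 242, 177 had a vasculature mean of 1 FPKM or more, 67 a cortex mean and 57 a mean of epidermis 2 and 3. The rule raised vasculature 2 and held epidermis 2 and 3 low. These differences were therefore fixed in part by the rule and the filter, and nothing is read from them.

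Among the pectin genes named first, the epidermis minus cortex log2 difference was 2.04 ± 1.55 (SE) for BnaCnng05770D, 1.33 ± 1.44 for BnaA06g09240D, 1.57 ± 1.26 for BnaCnng60280D and 1.71 ± 1.49 for VGD1 (BnaA03g21590D). These are the examples of the rule, and their SE reflects the spread that it required, so no test is given. Without epidermis 1 the difference of BnaA06g09240D turned to -0.37. Those of BnaCnng05770D, BnaCnng60280D and VGD1 stayed above 0, at 0.38, 0.18 and 0.21. The low levels in epidermis 2 and 3 behind these values were also required by the rule.

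The 3 conditions of the rule often fell on the same transcripts. The epidermis condition alone was met by 548 transcripts. Of these, 284 (51.8%) also met the vasculature condition, which 9.02% of the 45300 met, and 330 (60.2%) met the whole funiculus condition, which 12.4% of the 45300 met. Any level above 0 meets either condition where the replicates are at 0, and the 45300 were not matched to the 548 in level. These shares are therefore a description of the rule and no test. All 3 conditions were met by 242, and 306 of the 548 missed at least 1. In epidermis 2, 91 of the 242 (37.6%) were at 0, against 211 of the 306 (69.0%). The 306 had a median of 18.2 FPKM in epidermis 1 and of 0.857 FPKM in vasculature 2.

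Transcripts at the limits show how sharp the choice was. At the level of 10 FPKM in epidermis 1, BnaC07g27650D was just inside at 10.04 FPKM and BnaA07g16480D just outside at 9.97 FPKM. At the ratio of 5 to the other epidermis libraries, BnaA05g00810D was inside at 5.32 and BnaA02g04170D at 5.40, and BnaA03g21600D and BnaC05g39970D were outside at 4.77 and 4.69. At the ratio of 2 between vasculature libraries, BnaC08g09430D was inside at 2.05 and BnaC04g02280D outside at 1.95. At the ratio of 2 between whole funiculus 1 and 3, BnaC04g05270D was inside at 2.26 and BnaC04g06190D outside at 1.98.

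By the names that the gene models carry, 120 of the selected transcripts belonged to the A subgenome of this allopolyploid, 121 to the C subgenome and 1 to neither. The A share of 49.8% compared with 47.2% of the 45300. Chromosomes A03 and C03 held 24 each, which was 0.803% and 0.680% of their detected transcripts, against 0.534% of the 45300. The highest share was on A08, with 14 members (0.923%). Members within 30 in gene number of each other, that is within 3 successive gene models, formed 14 runs. No count of such runs over other transcripts stands beside it. One run held 3 transcripts, the pectate lyase BnaA03g27540D with BnaA03g27560D and BnaA03g27580D, at 41.4, 39.7 and 11.5 FPKM in epidermis 1. In 2 others a counterpart of SKU5 similar 13 lay beside an undescribed member, BnaA05g25890D beside BnaA05g25900D (116 and 37.3 FPKM) and BnaC03g37910D beside BnaC03g37900D (86.7 and 11.5 FPKM). Reads of neighbouring or near-identical copies, such as the A and C versions of 1 gene, may have been divided between gene models, and single copies are uncertain to that extent.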

How the data were processed

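RNA from laser-microdissected epidermis (3 libraries), cortex (2), vasculature (3) and whole funiculus (3) was amplified and sequenced. Per the labels and the study's methods, the authors used TopHat2 2.0.13 for alignment and Cufflinks 2.2.1 for transcript levels. The deposited values are FPKM, 1 column per library, for 97902 transcripts. Amplification and small inputs add noise to low values. Values were not scaled again, and no coordinates were used. The members were found by the rule given above. Members, marker lists and comparisons were chosen with earlier results of these data known, and the pollen list was written with the study's epidermis list in view. Named transcripts are the 4 examples of the rule, the highest in epidermis 1 (10), vasculature 2 (5) and whole funiculus 1 (5), all members with an Arabidopsis counterpart, their counterparts outside the rule, and those nearest each threshold. Pollen list transcripts outside the rule, the cutin transcripts, the members with a description but no place on the study's list, the chromosome neighbours, the exceptions in whole funiculus 2 and vasculature 2 and the transcript left without epidermis 1 were named after their values were seen. Arabidopsis pairings come from the study's supplementary lists, which were held in part. Tissues were compared with limma 3.58.1 (R 4.3.3; empirical Bayes with a variance trend) on log2(FPKM + 1) for 45300 transcripts whose mean reached 1 FPKM in 1 tissue or more, using the 8 tissue libraries. The fit and the estimate of depth from the spacing of low values were tested on simulated data. Tables and figures were made with Python 3.11.15, pandas 2.3.3 and matplotlib 3.10.9. The replicates are pools from several plants, and p-values measure the spread between them. Alternatives were other thresholds, pseudocounts and filters, whole funiculus libraries in the fit, no variance trend, a replicate block and leaving out each library. The means without each epidermis library were added after seeing the data.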

Additional observations from a re-analysis of the deposited data

How the results depend on the processing

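The number of transcripts meeting the rule was 242 and stayed within 1.5 times of it under 6 of 8 other thresholds. It was 141 with at least 20 FPKM in epidermis 1 and 143 with 1 FPKM added before the ratios. Levels under about 1 FPKM rest on few fragments, so ratios to them are imprecise. The count of all transcripts called in epidermis against cortex was unstable: 88 as given, 44 with a pseudocount of 0.5, 163 with a mean of at least 5 FPKM, 47 without a filter, 310 with whole funiculus libraries in the fit, 31 without a variance trend and 8 to 471 with each of the 8 libraries left out, every one of which moved it by over 1.5 times. Epidermis against vasculature had 7066 calls (4783 to 7047 with a library left out). Cortex against vasculature had 4518 calls (2814 to 4469, the lowest without vasculature 3). Members called were 0 in epidermis against cortex and cortex against vasculature under all of these settings, and were 0 to 1 in epidermis against vasculature. The 1 was BnaC01g29960D without epidermis 3, the library where it was at 0. At that setting 6075 of all 45488 transcripts tested were called. The rule chose the members on these libraries, so nothing is read from their counts. The epidermis minus cortex log2 difference of BnaA06g09240D ran from -0.37 (without epidermis 1, the library that the rule set highest) to 2.27 (without epidermis 3). Those of the other examples of the rule stayed above 0 with each library left out. Members at 5 times both other tissue means were 112, and 1 to 192 with an epidermis library left out, and all such transcripts were 1275, and 810 to 1456. Deviations of same-numbered libraries of different tissues correlated at -0.10 to 0.20, not all above 0.1. Deviations from a tissue mean are tied to each other where a tissue has so few libraries. The check therefore cannot settle whether the numbers pair the libraries, and the main fit did not pair them. With a replicate block, 3 transcripts were called in epidermis against cortex, 3138 in cortex against vasculature, and 0 members in any contrast.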
